A study of Mus musculus with 23 samples.

Results

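Common myeloid progenitors (CMPs) and Kit+ Sca-1+ lineage-negative cells (KSLs) were compared in mice that carried MLL-AF9-transduced, C/EBPa-deleted marrow and had not developed leukaemia. The comparison rests on 5 of the 23 arrays of the study, which were chosen by their labels alone: 3 arrays of GFP+ CMPs and 2 arrays of GFP+ KSLs. CMPs and KSLs of mouse 1 and of mouse 2 were sorted from the same bone marrow, so those 4 arrays also form 2 pairs, whereas mouse 3 gave CMPs only. The study profiled mouse bone marrow progenitors on Affymetrix arrays, 1 sample per array, and its other 18 arrays held leukaemic granulocyte-macrophage progenitors (L-GMPs) and untransplanted CMPs and GMPs.

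Both groups had the same history. KSLs were taken from Mx.1-Cre+ C/EBPa f/f mice after 3 injections of poly I:C, which switches on the Mx1 promoter in interferon-responsive cells, blood progenitors among them. They were cultured with 100 ng/ml mSCF, 100 ng/ml mTPO and 10 ng/ml mIL-3, given the fusion gene and GFP by an MSCV retrovirus, and transplanted with unmodified marrow into lethally irradiated congenic mice. GFP marks descendants of infected cells. The labels do not say how old the mice were, how many cells were sorted, or whether these recipients received the IL-3 and GM-CSF vectors used elsewhere in the study. As labelled, the groups differ by the gate: CMPs were Kit+ Sca1- CD34+ and low for the FcR II/III receptors, and KSLs were Kit+ Sca-1+.

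KSLs hold the stem cells and multipotent progenitors of the marrow, and part of them already transcribes lymphoid genes such as Flt3, Il7r and Dntt. CMPs lie downstream and give rise to granulocyte-macrophage and to megakaryocyte-erythroid progenitors. C/EBPa is the transcription factor needed for the step out of the CMP stage towards granulocytes and monocytes, and MLL-AF9 is a fusion of a histone methyltransferase with a transcription elongation partner that holds genes such as Hoxa9 and Meis1 in an active state.

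Antibody transcripts measured brighter in KSLs, and lymphoid genes had mostly lower means in CMPs. Of 19651 genes, only 1 passed a limma test at an adjusted p below 0.05: the immunoglobulin kappa segment Igkv19-93, on chromosome 6, was 9.23-fold lower in CMPs. No gene passed in the other direction. The called share was thus 0.00509% for lower genes and 0% for higher genes, and at an unadjusted p below 0.05 there were 617 genes higher in CMPs (3.14%) and 478 lower (2.43%). Differences given below for all other genes did not pass and are values only, and list members beyond the few picked by size were chosen as examples after their values were seen. Values are log2 expression on the RMA scale, in which 1 unit is a 2-fold difference, differences are CMP minus KSL, and levels are compared within a gene only.

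The gate and the deletion were looked at first. Kit, the receptor for stem cell factor, measured 10.30, 9.70 and 9.45 in CMPs of mice 1, 2 and 3, against 10.78 and 9.96 in KSLs of mice 1 and 2. Cd34 measured 7.99, 8.73 and 8.48 in CMPs and 8.41 and 8.70 in KSLs. Both transcripts were present in every array with overlapping levels. Fcgr3, an Fc receptor of the CMP gate, measured 6.72, 5.04 and 4.67 in CMPs, against 8.87 and 5.63 in KSLs, so that the KSLs of mouse 1 had the highest level. Sca-1 (Ly6a) was not analysed here, so the marker that separates the gates has no transcript value. Cebpa measured between 4.49 and 4.79 in CMPs and was 5.22 and 4.87 in KSLs, while control CMPs of the study averaged 7.54 ± 0.271 (SD, n = 4). Where its probes lie relative to the deleted part was not examined.

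Igkv19-93 measured 5.01, 5.83 and 5.48 in the CMPs of mice 1, 2 and 3, against 8.79 and 8.50 in the KSLs of mice 1 and 2. The 3 CMP arrays lay within the 5.22 to 6.13 found on the other 18 arrays or just below it, and only the 2 KSL arrays stood above. The difference was -3.21 ± 0.351 (SE), with a limma adjusted p = 0.000751. The call uses the spread of all 23 arrays, and fitted on the 5 arrays alone the limma adjusted p was 0.883. A dimmer probe set for the same segment measured 5.36, 5.54 and 5.48 in CMPs and 6.65 and 5.73 in KSLs. The name gives V kappa family 19 and place 93 in the kappa locus. Segments are alike in sequence, so a probe set may also read its relatives. Segments fall outside the rule for named genes, and this one was named after its values were seen.

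Several other antibody transcripts also lay lower in CMPs, and they were listed after the values were seen. Jchain, which joins IgA and IgM subunits, measured 3.53, 3.98 and 6.54 in CMPs, against 8.29 and 10.79 in KSLs. The CMPs of mouse 3 were the brightest CMP array and still lay below both KSL arrays, and the difference was -4.85 ± 1.26 (SE; limma adjusted p = 0.566). Ighm, the mu heavy chain, measured 5.89, 7.02 and 6.11 in CMPs and 8.71 and 9.73 in KSLs. Of 8 kappa segments measured, from 7 families, 4 lay lower in CMPs without overlap: Igkv10-96, Igkv19-93, Igkv9-120 and Igkv8-30, each of another family. The other 4 overlapped, with differences of -1.41 for Igkv4-91, -1.2 for Igkv5-43, -0.285 for Igkv6-20 and 0.0182 for Igkv4-55. Igkv10-96 was close to the array floor in CMPs, at 3.29, 3.58 and 3.00, and measured 9.42 and 8.92 in KSLs. Of 11 measured heavy and kappa chain genes, 10 had a lower mean in CMPs, and in 6 (54.5%) all 3 CMP arrays lay below both KSL arrays; over all genes tested that order held for 1694 genes (8.62%). Their median difference was -1.94, with -2.63 in mouse 1 and -0.96 in mouse 2, beside 0.00698 over all genes.

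Markers of antibody-producing and mature lymphoid cells were set beside these values. Pou2af1, a B cell co-activator, measured 4.90, 5.53 and 4.98 in CMPs and 6.32 and 6.16 in KSLs. Sdc1, a plasma cell surface proteoglycan, measured 4.38, 4.66 and 4.60 in CMPs and 4.88 and 5.14 in KSLs, and Xbp1, the secretory regulator of plasma cells, 9.11, 7.52 and 7.78 in CMPs and 8.80 and 8.07 in KSLs. All 10 genes of a plasma cell list, again chosen after the values were seen, had lower means in CMPs, with a median difference of -0.381. In 3 of them (30%, beside 8.62% over all genes) the CMP arrays lay below both KSL arrays without overlap. The mean level over that list was 4.84, 4.76 and 5.16 in CMPs and 5.54 and 6.07 in KSLs. Of 18 markers of mature B, T and NK cells, 14 had lower means in CMPs, 5 (27.8%, beside 8.62% over all genes) without overlap. The mean level of the 18 markers ranged from 5.56 to 5.77 in CMPs and was 5.84 and 5.90 in KSLs. The part of admixed antibody-producing cells in the immunoglobulin result was not tested. In bulk RNA, fewer cells of a type and less RNA per cell cannot be told apart.

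**Figure D1:**
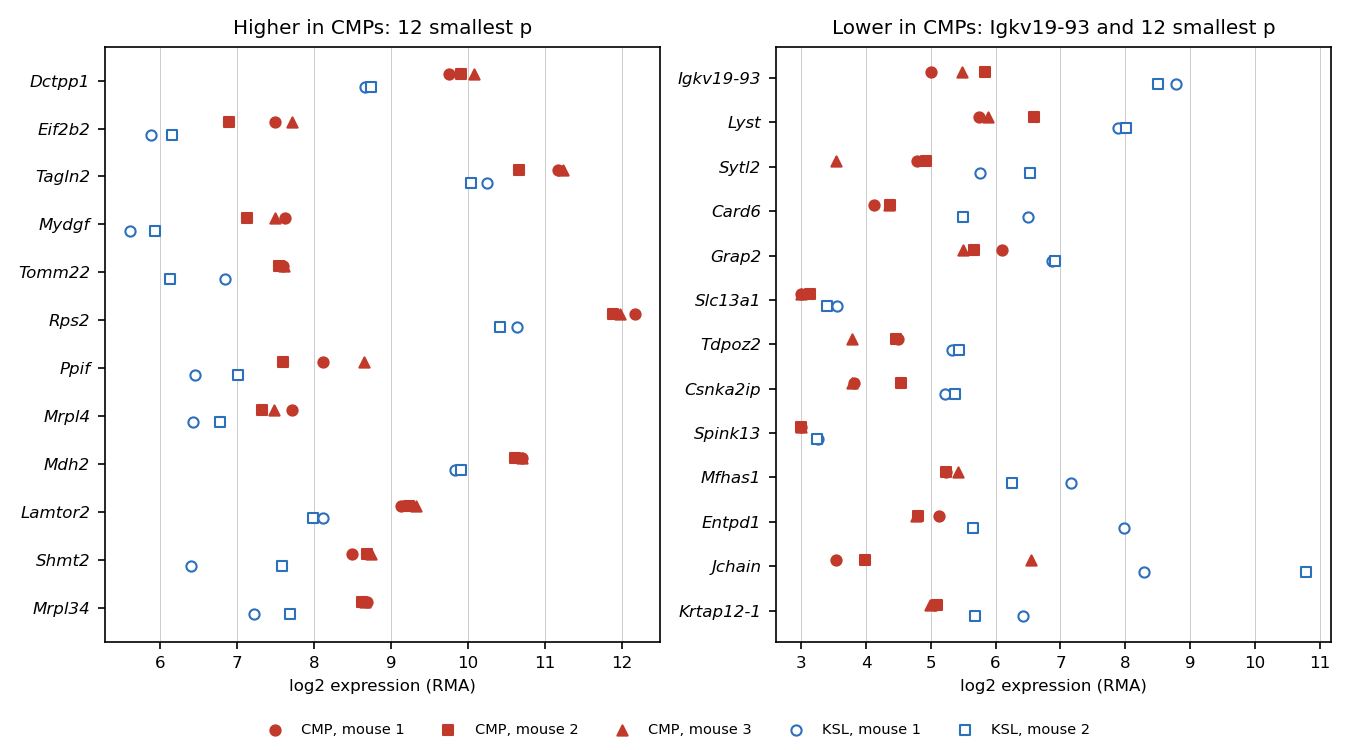
Log2 expression (horizontal axis) of the 12 genes of smallest p with higher values in CMPs (left) and of Igkv19-93 and the 12 of smallest p with lower values (right). Each symbol is 1 array, filled red for CMPs and open blue for KSLs, and its shape gives the mouse. In all 25 genes the 3 CMP arrays and the 2 KSL arrays do not overlap, and Igkv19-93 alone passed the test.

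Il7r and Ly6d mark lymphoid-primed progenitors. Il7r, the receptor chain for interleukin 7, measured 5.02, 8.37 and 3.71 in CMPs of mice 1, 2 and 3, against 9.09 and 9.79 in KSLs of mice 1 and 2. Both KSL arrays lay above every CMP array, but the CMPs of mouse 2 were far above the other CMPs. The mean was 13.4-fold lower in CMPs, a difference of -3.74 ± 1.17 (SE; limma adjusted p = 0.666), and the paired differences were -4.07 in mouse 1 and -1.42 in mouse 2. Ly6d, a surface antigen of early lymphoid cells, measured 5.41, 7.62 and 5.38 in CMPs and 7.13 and 9.20 in KSLs. The groups overlapped, because CMPs of mouse 2 exceeded KSLs of mouse 1. Its difference was -2.03 ± 0.624 (SE; limma adjusted p = 0.655), and within the 2 mice it was -1.72 and -1.58. It was -0.99 without the KSLs of mouse 2 and -3.06 without those of mouse 1.

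Across the study, the Il7r level of the 2 KSL arrays was reached by 1 other array, a primary control L-GMP sample at 9.34; the median of the 18 other arrays was 4.09. Ly6d reached 6.90 at most on those arrays, below both KSL arrays. By Pearson correlation over the 23 arrays, the genes with the pattern most like Il7r were Gpr174 (0.879), Unc5c (0.826), P2ry10b (0.805), Spink13 (0.794) and Sytl2 (0.791). For Ly6d they were Cd3g (0.937), Gbp8 (0.926), Ccr9 (0.898), Gimap7 (0.897) and Ryr3 (0.889). These arrays share groups and mice, so the coefficients describe the arrays and carry no p.

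The lymphoid list as a whole was lower in CMPs as a tally of means. Of its 26 measured genes, 24 had lower means in CMPs and 0 passed the test. In 6 (23.1%, beside 8.62% over all genes) the CMP arrays lay below both KSL arrays without overlap. In 1 (3.85%, beside 11% over all genes) they lay above. The median difference was -0.711, and -0.363 and -0.467 in mice 1 and 2, and it was -0.263 without the KSLs of mouse 2. Satb1, a chromatin organiser of lymphoid progenitors, measured 8.51, 9.28 and 6.78 in CMPs, against 9.61 and 10.31 in KSLs, without overlap. Dntt, the polymerase that adds untemplated bases to antigen receptor joints, measured 5.77, 10.52 and 5.26 in CMPs, against 9.19 and 10.91 in KSLs. Its groups overlapped, since the CMPs of mouse 2 exceeded the KSLs of mouse 1. Tcf3, which encodes the E2A factors, was the exception that lay higher in CMPs without overlap, at 8.32, 8.24 and 8.26 against 7.20 and 8.01 in KSLs. Vpreb1 and Igll1, which form the surrogate light chain, differed by -0.25 and -0.21 with overlapping arrays.

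Among genes outside these lists, the smallest p with lower values in CMPs belonged to Lyst, a regulator of lysosome and granule size. Lyst measured 5.74, 6.59 and 5.88 in CMPs and 7.89 and 8.01 in KSLs, a difference of -1.88 ± 0.322 (SE; limma adjusted p = 0.16), with -2.15 and -1.41 in the 2 mice. Without the CMPs of mouse 2 it was -2.14 with an adjusted p of 0.0499. No CMP array came near a KSL array. Sytl2, a vesicle-docking protein, differed by -1.73, Card6 by -1.72, Mfhas1 by -1.41 and Grap2, an adaptor of T cell receptor signalling, by -1.14, all without overlap. Entpd1 (CD39), which breaks down extracellular ATP, measured 5.13, 4.81 and 4.78 in CMPs and 7.99 and 5.65 in KSLs. Its difference of -1.91 was -3.08 without the KSLs of mouse 2 and -0.748 without those of mouse 1. That of Card6 was -2.23 without the KSLs of mouse 2 and -1.21 without those of mouse 1. Each of these values rests on a single KSL array. Slc13a1, Tdpoz2, Csnka2ip, Spink13 and Krtap12-1 complete the 12 genes. Spink13 was at the floor of 3 on all 3 CMP arrays and measured 3.26 and 3.24 in KSLs.

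The genes with higher values in CMPs were of another kind. Shmt2, the mitochondrial serine hydroxymethyltransferase that feeds one-carbon metabolism, measured 8.49, 8.69 and 8.74 in CMPs and 6.40 and 7.58 in KSLs. The 3 CMP arrays lay close together and above both KSL arrays, which were more than 1 unit apart. The difference was 1.66 ± 0.403 (SE), 3.15-fold, with a limma adjusted p = 0.542, and the paired differences were 2.10 and 1.11. The difference was 2.25 without the KSLs of mouse 2 and 1.06 without those of mouse 1. On the other 18 arrays Shmt2 ranged from 7.18 to 9.07 with a median of 8.41, so the CMPs lay inside the range of the study and the KSLs of mouse 1 below it. The most similar patterns over the 23 arrays were those of Atic (0.934), Cherp (0.931), Psat1 (0.929), H4c4 (0.919) and Nop16 (0.913).

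The other 11 genes of smallest p with higher values differed by 0.80 to 1.65, with limma adjusted p from 0.196 to 0.542. Dctpp1, which removes non-canonical pyrimidine nucleotides, had the smallest p; it measured 9.75, 9.91 and 10.08 in CMPs and 8.66 and 8.75 in KSLs, with paired differences of 1.09 and 1.17. The 3 CMP arrays all lay above both KSL arrays, and each group was closely spaced. Several of the others are mitochondrial or belong to protein synthesis: Tomm22, part of the outer-membrane import complex (1.10), Mdh2, the malate dehydrogenase of the citric acid cycle (0.80), Ppif, cyclophilin D (1.38), the mitochondrial ribosomal proteins Mrpl4 (0.90) and Mrpl34 (1.20), the ribosomal protein Rps2 (1.49) and the translation factor subunit Eif2b2 (1.35). Tagln2, an actin-binding protein, Mydgf, a secreted growth factor, and Lamtor2, a lysosomal scaffold of mTORC1 signalling, complete the set. Rps2 has many processed copies in the genome, so its probe sets may read them too.

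Of 23 measured genes of serine and one-carbon metabolism, 18 had higher means in CMPs, 6 (26.1%) without overlap; over all genes tested, 2166 (11%) had all 3 CMP arrays above both KSL arrays. The list's median difference was 0.304, with 0.465 in mouse 1 and 0.0105 in mouse 2, and it was -0.00685 without the KSL array of mouse 1. Atic, which completes purine synthesis, measured 9.20, 9.41 and 9.60 in CMPs and 7.75 and 8.94 in KSLs. Psat1, of serine synthesis, measured 8.21, 8.34 and 8.47 in CMPs and 7.04 and 7.89 in KSLs. Both show the KSLs of mouse 1 well below every other array. The difference of Atic was 1.65 without the KSLs of mouse 2 and 0.469 without those of mouse 1. Phgdh, the first enzyme of serine synthesis, overlapped, with 8.07, 7.53 and 7.09 in CMPs and 7.62 and 7.15 in KSLs.

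Growth-related lists lay on the same side, and 0 of their genes passed. Their shares without overlap stand beside 11% over all genes tested, for which all 3 CMP arrays lay above both KSL arrays. For ribosome biogenesis and MYC, 22 of 27 genes had higher means in CMPs, 10 (37%) without overlap, with a median difference of 0.432 and 0.744 and 0.158 in the 2 mice. That median was 0.0842 without the KSLs of mouse 1 and 0.778 without those of mouse 2. Cad, which begins pyrimidine synthesis, measured 8.28, 8.01 and 7.67 in CMPs and 6.53 and 7.59 in KSLs. Rrp9, of the small-subunit processome, differed by 0.93 without overlap. Myc itself measured 10.47, 10.65 and 10.67 in CMPs and 9.46 and 10.98 in KSLs, with overlap. For the amino acid and ATF4 response, 15 of 18 were higher, 7 (38.9%) without overlap, with a median of 0.372 but 0.68 in mouse 1 and 0.0998 in mouse 2, and 0.233 without the KSLs of mouse 1. The amino acid transporter Slc7a5 differed by 0.87. For the cell cycle, 27 of 31 were higher, 8 (25.8%) without overlap, with a median of 0.394 and 0.535 and 0.27 in the 2 mice, and it was 0.0444 without the KSLs of mouse 1 and 0.731 without those of mouse 2.

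Aurkb, a kinase of chromosome segregation, measured 7.84, 8.04 and 7.80 in CMPs and 6.70 and 7.34 in KSLs. Mki67, the usual proliferation marker, measured 8.55, 8.69 and 8.18 in CMPs, inside the 7.78 and 9.17 of the KSLs. In these lists the KSLs of mouse 1 were the dimmest array by mean level: for the cell cycle the means were 8.03, 8.33 and 8.04 in CMPs and 7.45 and 8.10 in KSLs. Among 77 mitochondrial ribosomal protein genes, listed after the values were seen, 58 had higher means in CMPs. In 26 of the 77 (33.8%, beside 11% over all genes) the CMP arrays lay above both KSL arrays without overlap. The median difference was 0.212, with 0.1 and 0.334 in the 2 mice and 0.349 without the KSLs of mouse 1. For 60 cytosolic ribosomal protein genes, also listed afterwards, the median was 0.0529. Without overlap, 12 lay above (20%, beside 11% over all genes) and 8 below (13.3%, beside 8.62% over all genes).

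**Figure D2:**
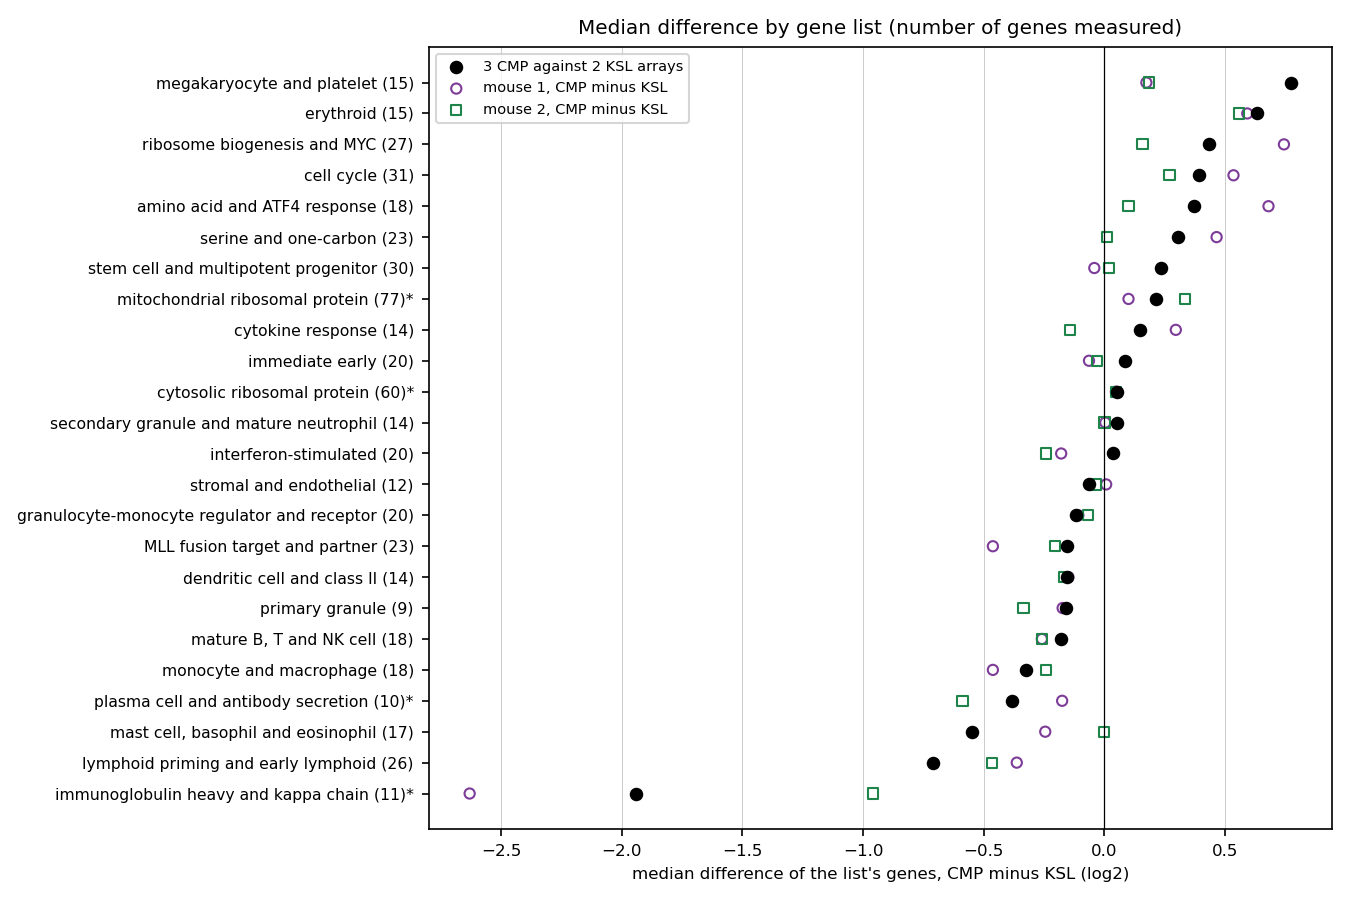
Median log2 difference, CMP minus KSL, of each gene list. Black points compare 3 CMP with 2 KSL arrays, and open symbols give the difference within mouse 1 or mouse 2; numbers in brackets are genes measured, and asterisks mark lists chosen after the values were seen. Lymphoid and immunoglobulin lists lie left of 0 in both mice and ribosome biogenesis and cell cycle lists right of it, while the black points of the megakaryocyte, stem cell and mast cell lists lie further out than those of either mouse.

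The remaining lineage lists gave no count beyond 4 genes without overlap in either direction, save the stem cell list with 5. Stem cell genes had a median difference of 0.235 but -0.0417 and 0.0179 within the 2 mice, and 5 of 30 (16.7%, beside 11% over all genes) lay higher in CMPs without overlap: Ctnnal1, Lyl1, Egr1, Mycn and Erg. Procr, the endothelial protein C receptor of stem cells, measured 4.64, 5.01 and 4.69 in CMPs and 4.96 and 4.72 in KSLs, at similar low values in both. Erythroid genes had a median of 0.631, with 0.592 and 0.558 within the 2 mice, and 11 of 15 had higher means; without the KSL array of mouse 1 the median was -0.0646. Klf1, the erythroid master regulator, measured 5.98, 8.32 and 8.08 in CMPs and 5.60 and 7.21 in KSLs, with overlap, and Tspo2 measured 5.32, 7.39 and 7.55 against 4.52 and 5.89 in KSLs.

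Myeloid lists had small median differences. Granulocyte-monocyte regulators and receptors had a median of -0.119, and 0.116 without the KSLs of mouse 1, while 4 of 20 (20%, beside 8.62% over all genes) lay lower in CMPs without overlap. Among them were Cebpb at 6.75, 6.38 and 6.23 in CMPs and 7.94 and 6.83 in KSLs, and Csf3r, the G-CSF receptor, at 4.60, 5.29 and 4.61 in CMPs and 5.61 and 5.89 in KSLs. Mpo, the peroxidase of primary granules, measured 5.76, 9.42 and 7.29 in CMPs and 8.07 and 9.34 in KSLs, with overlap; the paired differences were -2.31 in mouse 1 and 0.08 in mouse 2. Secondary granule genes differed by a median of 0.0528, monocyte genes by -0.325 and dendritic cell genes by -0.156. Stromal genes differed by -0.0647, and the endothelial marker Cdh5 measured between 4.23 and 4.48 on all 5 arrays. Interferon-stimulated genes had a median of 0.0372, but -0.179 and -0.241 within mice 1 and 2, and its sign changed in 5 of 15 alternatives. Of 20 genes, 0 lay above and 4 below without overlap (20%, beside 8.62% over all genes), Xaf1 and Oasl2 among the latter. Immediate early and cytokine response genes had medians of 0.0863 and 0.149.

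By correlation, arrays of the same mouse were the most alike; by counts of genes at least 2-fold apart this held for mouse 2 only. Of the 10 correlations between the 5 arrays, the highest were those of CMPs and KSLs of mouse 2 (0.976) and of mouse 1 (0.953); CMPs of different mice correlated at 0.946 to 0.948, and the KSLs of the 2 mice at 0.934. CMPs and KSLs of mouse 2 differed at least 2-fold in 410 genes and those of mouse 1 in 1616, while CMPs of different mice differed in 1437 to 1782 and KSLs of mice 1 and 2 in 1819. The median absolute difference of a gene was 0.319 between CMPs and KSLs of mouse 1 and 0.233 in mouse 2, against 0.248 to 0.313 between CMPs of different mice and 0.316 between the KSLs. The 2 paired differences did not run together across genes, with r = 0.000294 and the same sign in 46.2% of 19651 genes. Their Spearman rho was -0.0446. The difference between mice 1 and 2 in CMPs correlated with that in KSLs at r = 0.409. Its Spearman rho was only 0.135 and the same sign held in 50.8% of genes, so most genes did not follow the mouse either. In both mice 22 genes were at least 2-fold higher in CMPs and 31 at least 2-fold lower, and 34 were at least 2-fold apart in opposite directions. Between mouse 1 and mouse 2, 533 genes differed at least 2-fold in the same direction in both populations, and 41 in opposite directions. Both sets of differences use the same 4 arrays, so these counts describe the arrays and carry no p.

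At 4-fold or more, 133 genes differed between mice 1 and 2 alike in both populations, 98 higher in mouse 1 and 35 higher in mouse 2, and 0 in opposite directions. The corresponding count for CMPs and KSLs was 4 genes lower in CMPs in both mice and 0 higher. Besides the genes of smallest p, those at least 2-fold higher in CMPs in both mice included G6pc3, a glucose-6-phosphatase (1.40 and 1.38), Etfb, an electron transfer flavoprotein subunit (1.28 and 1.28), and the nucleolar protein Nop16 (1.15 and 1.17). Those lower included Emb (-1.22 and -1.29) and Txk, a kinase of T cells (-1.23 and -1.51). These 5 genes were named after their values were seen.

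**Figure D3:**
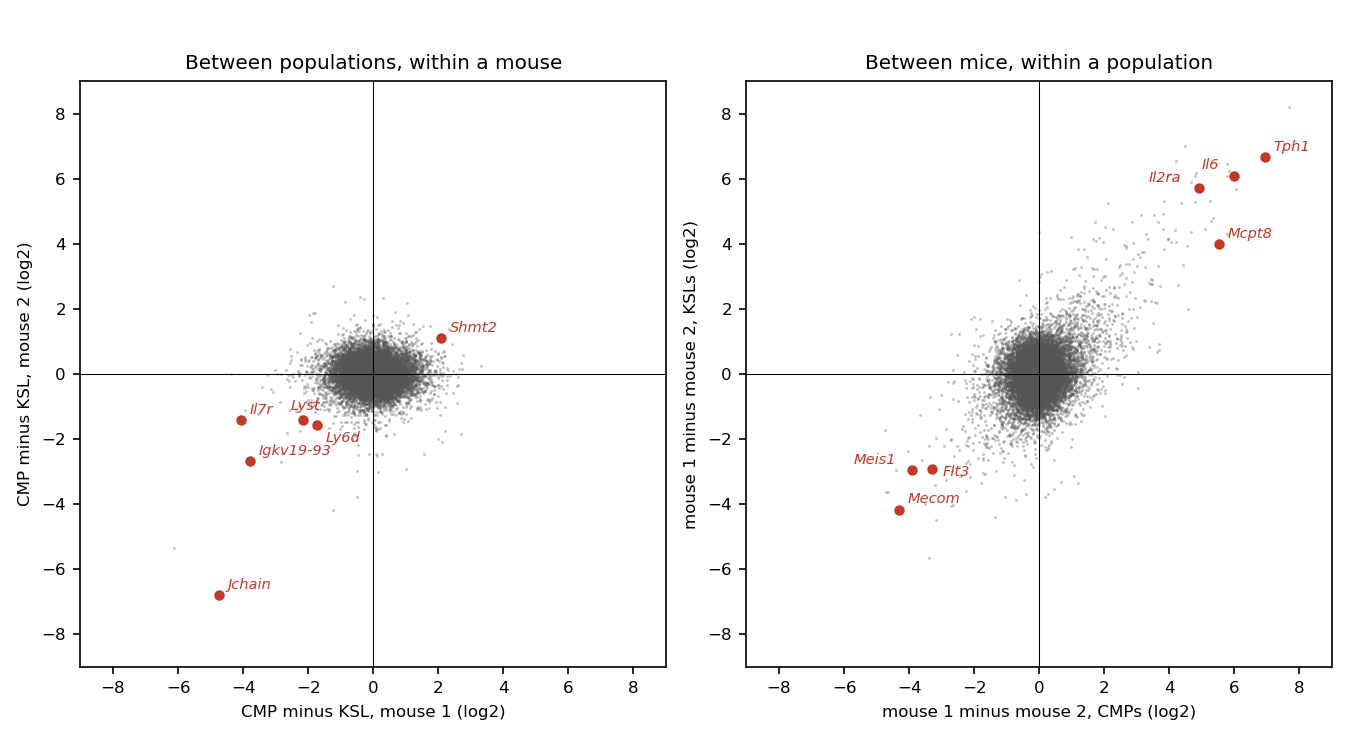
Each grey point is 1 of 19651 genes. On the left the difference CMP minus KSL (log2) of mouse 1 is plotted against that of mouse 2; on the right the difference mouse 1 minus mouse 2 (log2) of CMPs is plotted against that of KSLs, with named genes in red. The left cloud has no slope, with Il7r, Ly6d, Lyst, Igkv19-93 and Jchain at its lower left, while the right cloud has a long arm of genes that differ between the mice in both populations.

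Among these 5 arrays, most genes of the mast cell and basophil list were brightest in mouse 1, in both gates. In 12 of 17 genes of that list both arrays of mouse 1 lay above the other 3, against 2085 of all genes tested (10.6%). Mcpt8, a basophil protease, measured 10.74, 5.20 and 4.08 in CMPs of mice 1, 2 and 3, and 10.72 and 6.73 in KSLs of mice 1 and 2. Ms4a2, the beta chain of the IgE receptor, measured 9.11, 4.44 and 3.88 in CMPs and 9.88 and 3.98 in KSLs. Hdc, which makes histamine, measured 10.10, 5.01 and 5.43 in CMPs and 9.63 and 5.16 in KSLs. In all 3 genes both arrays of mouse 1 stood above the others, and CMP and KSL arrays overlapped. Within mice, the paired difference of Mcpt8 was 0.02 in mouse 1 and -1.53 in mouse 2. The list's mean level was 7.28, 5.12 and 5.17 in CMPs and 7.78 and 5.14 in KSLs. Cpa3, a mast cell gene, measured 12.03, 9.48 and 7.99 in CMPs and 12.60 and 9.51 in KSLs, so mice 2 and 3 had it too. On the other 18 arrays Mcpt8 reached 10.26 (a control GMP array) and Cpa3 11.03 (an untransplanted knockout CMP array).

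The genes with the widest gap between mice 1 and 2, named after their values were seen, included Il6 at 9.00, 3.00 and 3.37 in CMPs and 9.10 and 3.00 in KSLs. Tph1, which makes serotonin in mast cells, measured 10.39, 3.44 and 3.80 in CMPs and 10.33 and 3.65 in KSLs. Il2ra, the alpha chain of the interleukin 2 receptor, measured 8.62, 3.73 and 4.51 in CMPs and 10.11 and 4.40 in KSLs, and Csf2rb2, a beta chain of the IL-3 receptor, 10.20, 5.39 and 6.68 in CMPs and 10.93 and 4.74 in KSLs. Each was bright in mouse 1 in both populations. Immediate early genes followed the same order in 10 of 20.

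Genes that MLL fusions are known to keep active were dim in mouse 1. In 13 of 23 genes of that list both arrays of mouse 1 lay below the other 3, against 2352 of all genes tested (12%). Meis1 measured 4.84, 8.76 and 9.79 in CMPs of mice 1, 2 and 3 and 6.04 and 8.99 in KSLs of mice 1 and 2. Mecom, which encodes EVI1, measured 3.65, 7.95 and 8.60 in CMPs and 4.29 and 8.46 in KSLs. Eya1 and Mef2c had the same order, and Hoxa9 measured 5.09, 7.46 and 6.93 in CMPs and 5.98 and 7.66 in KSLs. All arrays of mice 2 and 3 exceeded both arrays of mouse 1 in these 5 genes. Untransplanted knockout CMPs, which had no fusion gene, measured 8.55 to 9.00 for Meis1 and 4.13 to 4.29 for Mecom. The part of the fusion in these levels was not tested. Between populations the list's median difference was -0.155, and it turned to the other sign without the CMPs of mouse 1 or without the KSLs of mouse 2, within a range of -0.534 to 0.649. Erythroid genes lay below in mouse 1 in 10 of 15, cell cycle genes in 14 of 31 and stem cell genes in 12 of 30.

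In mouse 2 part of the lymphoid list was high in both populations. In 8 of its 26 genes both arrays of mouse 2 lay above the other 3, against 2106 of all genes tested (10.7%). Il7r was not among them, with CMPs of mouse 2 at 8.37 and KSLs of mouse 1 at 9.09. The same order held for 6 of 14 dendritic cell, 8 of 23 MLL target, 5 of 15 erythroid and 10 of 31 cell cycle genes. Flt3, a cytokine receptor of lymphoid-primed progenitors, measured 5.24, 8.53 and 6.16 in CMPs and 6.66 and 9.60 in KSLs. Ccr9, a homing receptor, measured 4.54, 7.72 and 4.31 in CMPs and 5.13 and 9.61 in KSLs. For both, the CMPs of mouse 2 exceeded the KSLs of mouse 1, although within each mouse the CMPs were lower. The part of the mouse in the difference of Il7r, Ly6d and the lymphoid list was not tested. The paired values above give the difference within mice 1 and 2 only and leave out the CMPs of mouse 3.

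Most platelet genes were brightest in the CMP array of mouse 3, which has no KSL partner. In 11 of 15 megakaryocyte and platelet genes this array was the brightest of the 5, against 5043 of all genes tested (25.7%). The same array was also the brightest in 16 of 30 stem cell genes and in 30 of 77 mitochondrial ribosomal protein genes. Ppbp, a platelet chemokine, measured 4.25, 5.13 and 9.71 in CMPs of mice 1, 2 and 3 and 4.82 and 4.48 in KSLs. Gp9, a subunit of the von Willebrand factor receptor, measured 5.92, 6.20 and 8.89 in CMPs and 6.07 and 5.83 in KSLs. Vwf measured 5.73, 5.76 and 8.23 in CMPs and 5.76 and 5.62 in KSLs, and Slamf1 (CD150) 4.24, 4.63 and 7.84 in CMPs and 4.53 and 4.96 in KSLs. Outside mouse 3, CMPs and KSLs were close in Ppbp, Gp9, Vwf and Slamf1. Pf4, another platelet chemokine, measured 7.64, 8.44 and 11.24 in CMPs and 6.25 and 8.25 in KSLs. Its paired differences were 1.39 in mouse 1 and 0.19 in mouse 2. Untransplanted knockout CMPs measured 9.05 to 10.61 for Pf4, so its transcript was not particular to mouse 3. The list's median difference of 0.773 became 0.174 and 0.186 within mice 1 and 2.

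**Figure D4:**
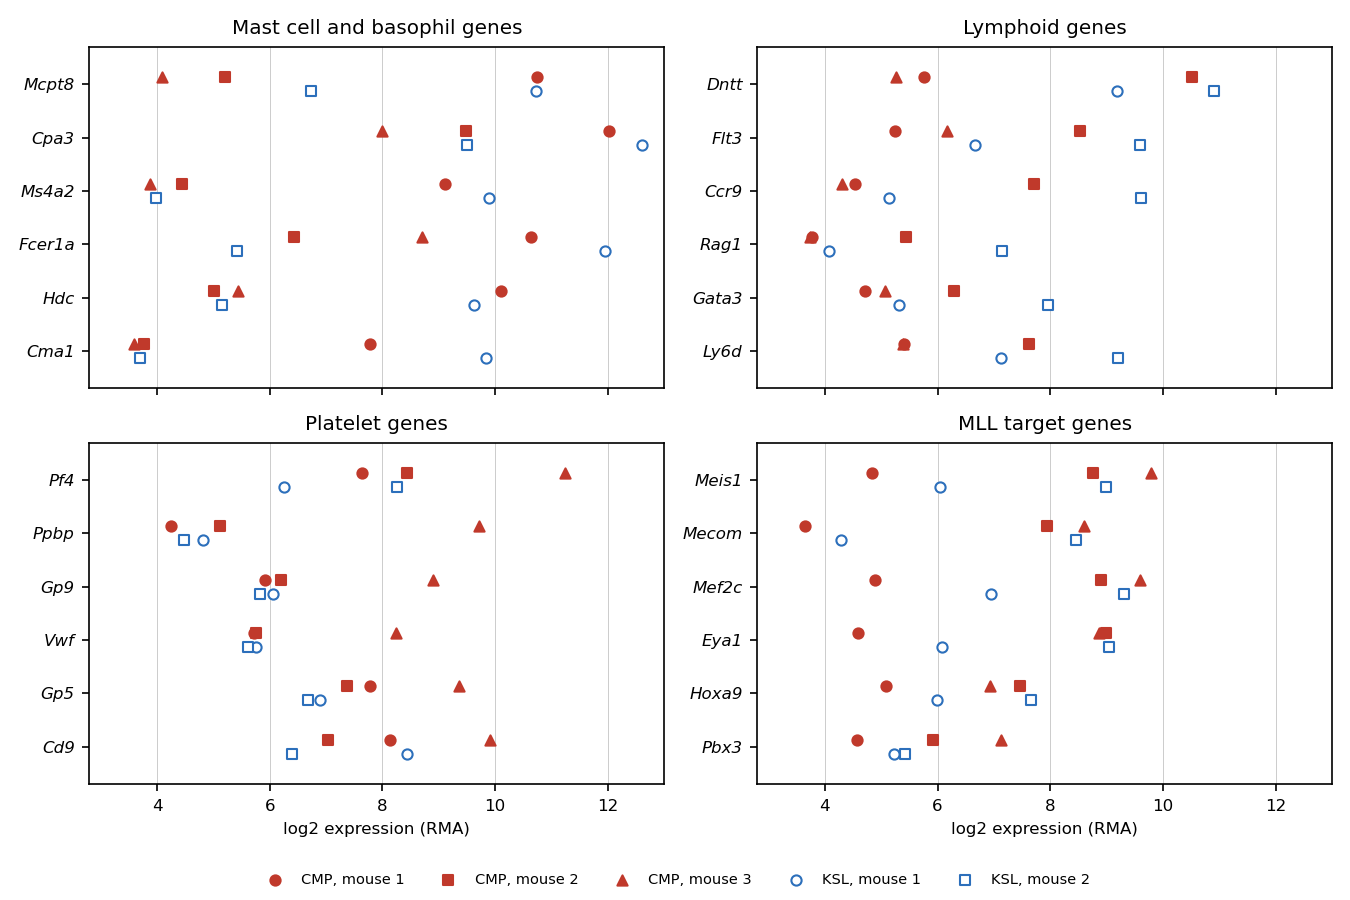
Log2 expression (horizontal axis) of 6 genes of each of 4 lineages on the 5 arrays, filled red for CMPs and open blue for KSLs, with the shape giving the mouse. The genes shown are examples. Among them, mast cell and basophil genes are high in both circles (mouse 1) and MLL target genes are low in both circles. The lymphoid genes shown are high in both squares (mouse 2), and the platelet genes are highest in the red triangle (CMPs of mouse 3). Over the whole lymphoid list, 8 of 26 genes had both arrays of mouse 2 above the other 3.

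The arrays within each of these groups also differed more than those of most other groups. The median absolute deviation of a gene from its group mean was 0.164 in these CMPs and 0.158 in these KSLs, against 0.0759 to 0.0776 in untransplanted knockout and control CMPs. It was 0.153 in primary control L-GMPs, 0.0956 in secondary control L-GMPs and 0.0789 in secondary knockout L-GMPs, so the arrays were given weights by the spread of their group. With equal weights on all 23 arrays, 380 genes (1.93%) passed as higher and 248 (1.26%) as lower in CMPs, and 1 error estimate then served both the quieter and the noisier arrays. Shmt2 passed there with an adjusted p of 0.0029 and Il7r did not, at 0.0733.

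**Figure D5:**
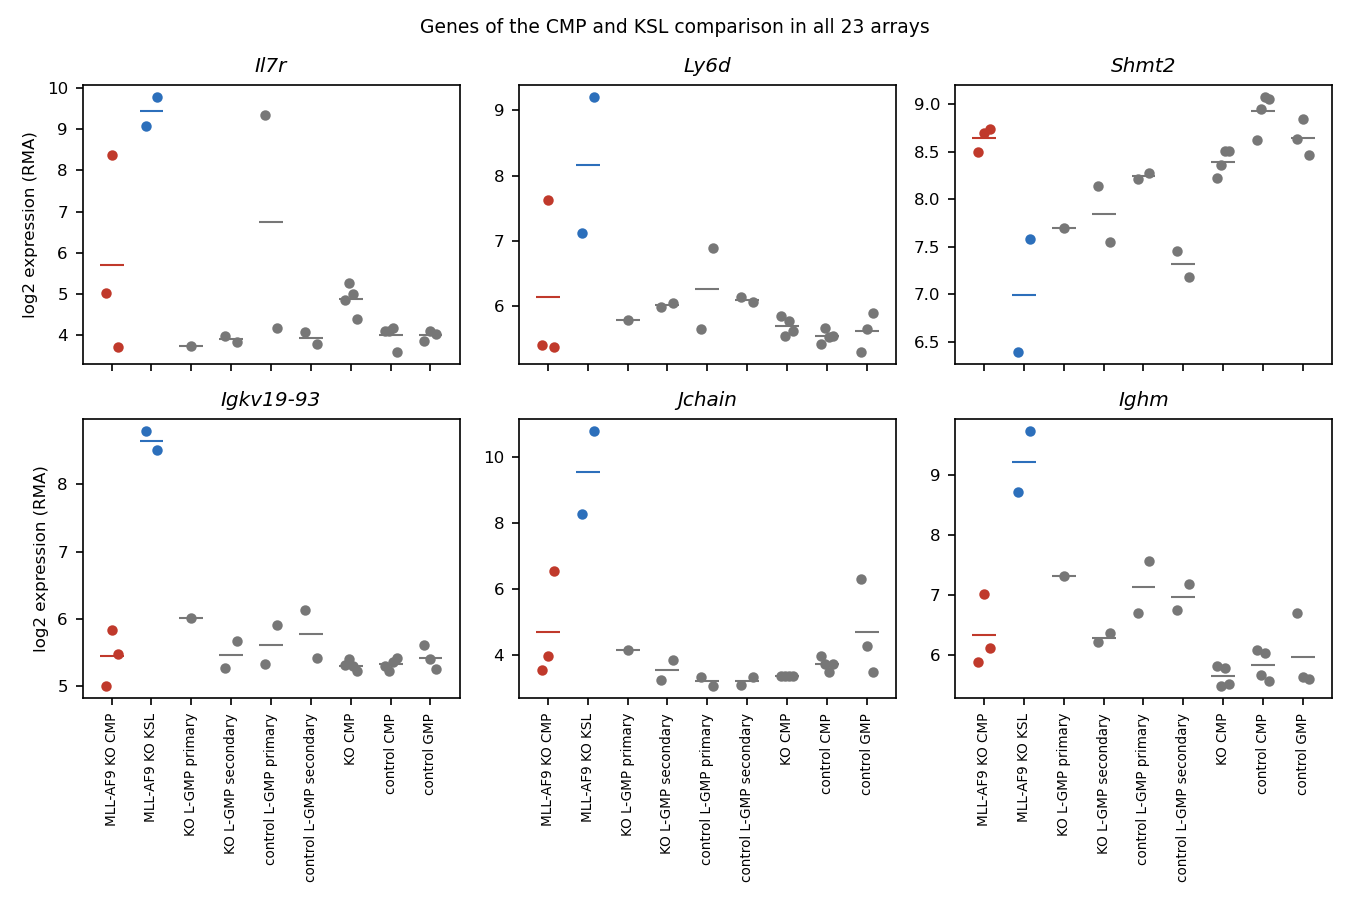
Log2 expression (vertical axis) of Il7r, Ly6d, Shmt2, Igkv19-93, Jchain and Ighm on all 23 arrays by group. Each point is 1 array and each bar a group mean, red for MLL-AF9 CMPs, blue for MLL-AF9 KSLs and grey for the other groups. The 2 KSL arrays are the highest of the study for Igkv19-93, Jchain and Ighm. The CMPs of mouse 2 lie between them for Ly6d (7.62), and 1 primary control L-GMP array does for Il7r (9.34).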

How the data were processed

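The authors deposited log2 expression for 34760 probe sets, computed with RMA per the submitters' processing notes, which name no version, from RNA amplified with a whole-transcriptome kit, per the labels' protocols. RMA equalises array distributions and compresses differences of dim genes; 2952 to 3379 probe sets per array sat at the floor of 3. Of the probe sets, 21640 carried 1 symbol in the platform annotation, 1321 several and 11799 none listed here. The brightest probe set stood for each of 954 genes with several, and 286 genes at the floor on every array were left out, which left 19651.

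Group means of 9 groups on 23 arrays were fitted with limma 3.58.1 in R 4.3.3, with a trend in the prior variance and 1 weight per group (0.323 for the MLL-AF9 CMPs and KSLs, 2 for control CMPs); p-values were two-sided and Benjamini-Hochberg adjusted over all genes. The fit left 14 residual degrees of freedom, and the 5 arrays alone 3, so the number of arrays limits the precision. The code was tested on simulated data. CMPs and KSLs of mice 1 and 2 were paired through the mouse named in their labels, and their deviations correlated at 0.409 across genes. The labels name 3 separate mice for these 5 arrays. The main p-values rest on the weighted spread within groups over all 23 arrays, and they treat CMPs and KSLs of the same mouse as independent. No 2 of the 253 array pairs shared more than 0.00323% of values above the floor.

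Named genes were Il7r, Ly6d, Shmt2, Cebpa, gate genes, the 12 of smallest p in each direction (predicted genes, small RNAs, olfactory receptors, antigen receptor segments, Y-linked genes and Xist left out), up to 2 per list by size of difference, and other genes chosen as examples after their values were seen. The members and the 21 lists (432 entries, 389 measured) were chosen with earlier results of these data known, 4 further lists were added after the values were seen, and no list was tested.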

Additional observations from a re-analysis of the deposited data

How the results depend on the processing

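The counts of 0 genes higher and 1 lower in CMPs stayed at 0 and 1 with a weight per array, without a trend, with median centring or repeated quantile normalization, and for genes with a mean of at least 5. With the mouse as a replicate block on 23 arrays they were 1 and 1, Olfr1000 (0.861, limma adjusted p 0.00479) being the added gene, named after its value was seen, and Igkv19-93 kept an adjusted p of 0.00479. On the 5 arrays alone 0 and 0 genes passed (0.0899 was the smallest adjusted p, and 959 genes, 4.88%, had an unadjusted p below 0.05), as with the replicate block there (smallest adjusted p 1). Equal weights gave 380 and 248 and passed 28 of 64 named genes. The mean of a gene's probe sets gave 0 and 2, Ighm (-2.27) joining Igkv19-93. Leaving out each array in turn gave 0 to 15 higher and 1 to 62 lower genes; without the KSLs of mouse 1 they were 2 and 12, without the KSLs of mouse 2 15 and 62, without the CMPs of mouse 1 or mouse 2 0 and 2, and without the CMPs of mouse 3 1 and 1, with the lone KSL array assumed to vary like the others; the cause was not tested. Of 945 values of named genes over 15 alternatives, 935 kept their direction. Reversals, each given with the range over single arrays left out, were Osm (-0.118 to 1.37) without the CMPs of mouse 1, and Aff1 (-1.71 to 0.0107), S100a9 (-1.52 to 0.493), Rhag (-0.152 to 3.03), Cma1 (-4.8 to 1.35), Nr4a1 (-0.696 to 2.01) and Il2ra (-4.49 to 1.22) without the KSLs of mouse 1. Gata2 (-0.0621 to 2.07), Ms4a6b (-2.98 to 0.0111) and Ccr9 (-4.08 to 0.39) reversed without the KSLs of mouse 2. Signal near the floor limits dim genes such as Spink13 and Slc13a1.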
